A study of Mus musculus with 29 samples.

Results

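The alpha chain V segments described here are those that the mouse also uses for the delta chain of the T cell receptor, written with both names (TRAV21/DV12 is an alpha V segment and the delta segment DV12). They were taken from the productive alpha chain (TRA) rows of the combined repertoire table as every V name that holds a /DV segment, leaving out names with a TRAV6 or TRAV14 segment. The rule gave 10 of 145 TRA V names. These 10 names held 1093 TRA clonotypes, 4.98% of all, and 12667 counts, 3.96% of all TRA counts. Each clonotype is 1 combination of V name, J segment and CDR3, where CDR3 is the amino acid sequence of the variable loop that the V-to-J junction encodes.

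The study sequenced T cell receptor transcripts in 29 samples of metastases, from brain or ovary, in mice bearing Braf-mutated melanoma. Its title asks whether anti-PD-L1 is best given before a combination with a MAPK pathway inhibitor. PD-L1 binds the checkpoint receptor PD-1 on T cells. On day 0 the groups were untreated (called vehicle in the sample titles) and anti-PD-L1 lead-in. On day 3 they were Trametinib, an inhibitor of the kinase MEK, the concurrent combination of Trametinib and anti-PD-L1, and the lead-in combination, in which both were given after an anti-PD-L1 lead-in. All groups carried the same tumour model, and the sources used here do not give its cell line, host strain or age. Per treatment, brain had 4 samples (3 where untreated) and ovary had 2. Titles give each sample a number and, for all but 1 brain sample, part 1 or part 2 of it. Each brain treatment had 2 numbers (3 and 7 untreated, 10 and 11 lead-in, 8 and 13 Trametinib, 1 and 6 concurrent, 12 and 14 lead-in combination), and ovary had numbers 3, 10, 13, 1 and 12 of the same treatments. Whether each number stands for an animal is not stated, so p-values measure only how far numbers spread, which may be technical.

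Brain samples held 230 to 9389 TRA counts and ovary samples 14088 to 51549, so a count of 0, which allows up to 3 counts, allows a share of up to 0.0320% to 1.30% in a brain sample. The brain samples of the lead-in combination were among the deepest (5192 to 9389), and the untreated ones held 363 to 635. Such limits cover counting error only. The table used here holds 0 rows of gamma or delta chains, and no other transcript, so the use of these segments in delta chains was not analysed here. In bulk RNA, fewer cells of a clone and less receptor RNA per cell cannot be told apart.

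The alpha and delta chains are encoded in 1 locus, with the delta gene segments lying between the V segments and the long row of TRAJ segments. A dual-use V segment can join either a delta D segment or a TRAJ segment, and joining to a TRAJ segment removes the delta segments of that chromosome. TRAJ segments are numbered backwards, so that high numbers lie nearest to the V segments. Alpha rearrangement in the thymus proceeds in rounds, each of which can replace the earlier join with one from a V segment farther upstream and a TRAJ segment farther downstream.

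Of the 10 names, 4 held 99.4% of the counts. The name that joins TRAV16D/DV11 or TRAV16N, below called TRAV16D/DV11, had 590 clonotypes and 6739 counts; the table cannot tell these segments apart, and TRAV16N carries no delta name. TRAV21/DV12 had 272 clonotypes and 3998 counts, TRAV13-4/DV7 129 and 1442, and TRAV15-1/DV6-1 59 and 414. The other 6 names had 2 to 22 counts each and 74 in all. Of those, 50 counts lay in 3 names that join TRAV4-4/DV10 with other TRAV4 segments, and 24 in joined names of the TRAV15 and TRAV16 families. Only 3 of the 10 names consist of dual-use segments alone: TRAV21/DV12, TRAV13-4/DV7 and TRAV15-1/DV6-1. The dual-use names left out by the rule held 6282 counts where they carry DV8 and 217 where they carry DV9.

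The CDR3 sequences below, each with the TRAJ segment it was joined to, are, for each of the 4 main names, the clonotype with the highest share of TRA counts in any 1 sample, the clonotypes of 14 residues or fewer found in 4 or more numbers, and a TRAV21/DV12 clonotype that was the largest of its name in both organs of a number (the last was chosen after its values were seen). A share of a shallow brain sample can rest on few counts: the top TRAV15-1/DV6-1 clonotype had 2 counts and that of TRAV21/DV12 24 in all. By counts, larger clonotypes were found in ovary for TRAV21/DV12 (372), TRAV13-4/DV7 (349) and TRAV15-1/DV6-1 (76), with CDR3s of 15 or 16 residues. The opening residues of a CDR3 come from the V segment.

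highest share in a sample, TRAV16D/DV11 with TRAJ30: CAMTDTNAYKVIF
in 6 numbers, TRAV16D/DV11 with TRAJ16: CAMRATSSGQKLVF
highest share in a sample, TRAV21/DV12 with TRAJ56: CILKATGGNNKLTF
in 4 numbers, TRAV21/DV12 with TRAJ58: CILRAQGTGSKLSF
in both organs of number 12, TRAV21/DV12 with TRAJ58: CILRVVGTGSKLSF
highest share in a sample, TRAV13-4/DV7 with TRAJ15: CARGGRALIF
highest share in a sample, TRAV15-1/DV6-1 with TRAJ15: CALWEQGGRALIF

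The names differed in how often each opening occurred, and TRAV16D/DV11 and TRAV13-4/DV7 shared the most common one, CAM. CAM opened 96.9% of the TRAV16D/DV11 clonotypes, and CAMR opened 87.1%. CIL opened 92.6% of the TRAV21/DV12 clonotypes, and CILR 80.1%. CALW opened 94.9% of the TRAV15-1/DV6-1 clonotypes. TRAV13-4/DV7 was the most varied of the 4, with CAM in 79.8% and CAME in 38.0%. Among all other TRA clonotypes the most common opening was CAA, in 37.4%.

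The 4 main names differed in mean abundance, and none of them passed the test between treatments or organs. TRAV16D/DV11 was the most abundant, with 3.13% ± 2.30 (SD, n = 10 numbers) of TRA counts in brain and 1.82% ± 0.612 (n = 5) in ovary. Over pooled counts it ranked 4 of 130 TRA V names in brain and 16 of 141 in ovary. The pooled brain share of 3.83% was 2.12% without number 14, and the rank then 11 of 125. TRAV21/DV12 followed with 1.03% ± 1.02 in brain and 1.20% ± 0.881 in ovary. TRAV13-4/DV7 held 0.478% ± 0.402 in brain and 0.352% ± 0.373 in ovary, and TRAV15-1/DV6-1 held 0.192% ± 0.218 and 0.117% ± 0.0727. Together the 10 names held 4.87% ± 2.67 of TRA counts in brain and 3.51% ± 1.22 in ovary. In the 5 brain libraries of the numbers sampled in both organs they held 3.88% ± 1.44. Each of the 4 main names overlapped the next less abundant one in its range over numbers, in brain and in ovary.

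**Figure D1:**
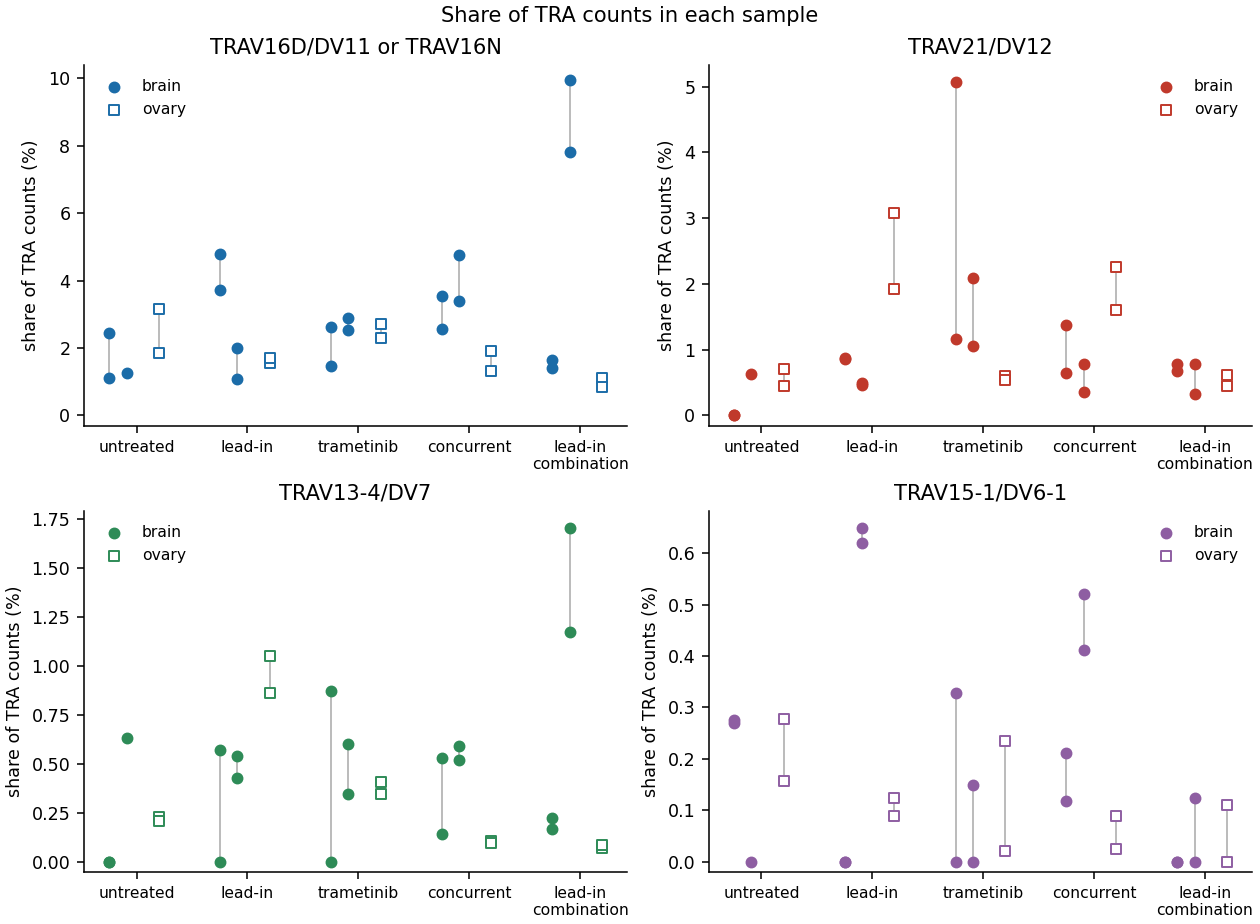
Share of TRA counts (%) of each main dual-use V name by sample, for the 5 treatments; filled circles are brain samples, open squares ovary samples, and a grey line joins the parts of 1 number. The brain samples of number 14 (lead-in combination) stand highest for TRAV16D/DV11, at 9.93% and 7.80%, and part 1 of number 8 (Trametinib) stands highest for TRAV21/DV12, at 5.07%.

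TRAV16D/DV11 in brain held 1.10% and 2.43% in the parts of number 3 and 1.26% in number 7, the untreated samples. The lead-in samples held 4.78% and 3.71% (number 10) and 1.99% and 1.08% (number 11). Trametinib samples held 2.62% and 1.45% (number 8) and 2.90% and 2.55% (number 13). The groups overlapped up to this point. Concurrent combination samples held 3.54% and 2.55% (number 1) and 4.77% and 3.39% (number 6). The lead-in combination samples held 1.41% and 1.65% (number 12) and 9.93% and 7.80% (number 14). That group therefore held both some of the lowest and the highest of the brain samples. In ovary the shares ran from 0.849% and 1.11% in the lead-in combination to 1.86% and 3.15% in the untreated samples.

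TRAV21/DV12 in brain was at 0 of 363 and 0 of 370 counts in the untreated parts of number 3, which allows shares of up to 0.826% and 0.811%, and at 0.630% in number 7. The lead-in samples held 0.870% and 0.857% (number 10) and 0.487% and 0.464% (number 11). Trametinib samples held 5.07% and 1.16% (number 8) and 2.09% and 1.05% (number 13). All 4 Trametinib samples lay above all 3 untreated ones, and above all but 1 of the samples given Trametinib with anti-PD-L1. Concurrent combination samples held 0.648% and 1.38% (number 1) and 0.353% and 0.782% (number 6), and those of the lead-in combination 0.675% and 0.788% (number 12) and 0.324% and 0.790% (number 14). In ovary the order was another, with 1.92% and 3.08% in the lead-in, 2.26% and 1.61% in the concurrent combination and 0.441% to 0.707% in the 6 samples of the other treatments.

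TRAV13-4/DV7 was at 0 in 4 of 19 brain samples (both parts of number 3, part 1 of number 10 and part 1 of number 8), all with fewer than 700 TRA counts. In the other brain samples it held 0.140% to 0.872%, apart from 1.71% and 1.17% in the parts of number 14. In ovary it held 1.05% and 0.864% in the lead-in samples, and the other treatments lay lower, between 0.0687% and 0.409%.

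TRAV15-1/DV6-1 was at 0 in 8 of 19 brain samples. The highest brain samples were those of number 11 (lead-in), at 0.649% and 0.619%, and of number 6 (concurrent), at 0.412% and 0.521%. Of the 4 lead-in combination samples 3 held 0 counts, at totals of 8893, 9389 and 5192 TRA counts that allow up to 0.0337%, 0.0320% and 0.0578%, and the fourth held 0.124%. The 4 concurrent samples held 0.118% to 0.521%, so the groups overlapped. Ovary samples held 0 to 0.277%.

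These shares were compared across all V names of both chains with edgeR's quasi-likelihood test, with Benjamini-Hochberg adjustment and a threshold of 0.05. In brain 99 V names were tested, and 0 (0%) passed for any anti-PD-L1 against none within day, 0 (0%) for Trametinib against untreated and 0 (0%) for the lead-in against the concurrent combination. At an unadjusted p under 0.05 these comparisons had 6, 5 and 5 V names, and DESeq2 also called 0 in each. The 4 main dual-use names were among those tested, and none of the 6 rare names reached the filter of at least 10 counts in at least 2 libraries.

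With anti-PD-L1, TRAV16D/DV11 differed by 0.84 ± 0.49 (log2 fold change ± SE; edgeR adjusted p = 0.786). Its mean shares over numbers were 1.52% untreated and 2.91% in the lead-in, and 2.47% in Trametinib, 3.43% in the concurrent and 5.31% in the lead-in combination. Without number 14 the log2 difference was 0.40. The values of the other main names were -0.37 ± 0.80 for TRAV21/DV12, 0.55 ± 0.98 for TRAV13-4/DV7 and 0.59 ± 1.30 for TRAV15-1/DV6-1 (edgeR adjusted p from 0.886 to 0.913). Without number 7 the values of TRAV21/DV12 and TRAV13-4/DV7 were 3.21 and 4.14, and TRAV13-4/DV7 was at 0.024 without number 3 and 0.025 without number 14. TRAV15-1/DV6-1 was at -3.05 without number 11 and -0.37 without number 14.

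Between Trametinib and untreated samples, the log2 difference of TRAV21/DV12 was 3.11 ± 1.27, with an unadjusted edgeR p of 0.0241 and an adjusted p of 0.626. Adjusted p ran from 0.148 (without number 7) to 1.0 (with no filter on low counts) over the alternatives. One of the untreated numbers was at 0, so the fitted size depends on the prior count: it was 10.28 without number 7, 2.06 without number 3, and 1.91 with each clonotype counted once. Trametinib was sampled on day 3 and untreated on day 0, so the effects of day and treatment cannot be told apart. TRAV16D/DV11 (0.70 ± 0.75), TRAV13-4/DV7 (0.36 ± 1.58) and TRAV15-1/DV6-1 (-0.15 ± 2.20) had edgeR adjusted p-values of 0.897 to 0.966.

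Between the lead-in and the concurrent combination, TRAV15-1/DV6-1 had the largest log2 difference of the main names, -3.07 ± 1.60 (edgeR's quasi-likelihood test, adjusted p = 0.793). It was -6.88 without number 14, whose part 1 held the only counts of the lead-in combination. TRAV13-4/DV7 differed by 1.08 ± 1.27, TRAV16D/DV11 by 0.63 ± 0.68 and TRAV21/DV12 by -0.50 ± 1.02 (edgeR adjusted p = 0.855 each). Without number 14 the TRAV13-4/DV7 and TRAV16D/DV11 values turned to -1.01 and -1.16.

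Ovary was compared with brain over the 5 numbers sampled in both, in a main fit that did not pair the organs by number. Of 111 V names 0 (0%) passed in edgeR, 15 had an unadjusted p under 0.05, and DESeq2 called 6, none of them a dual-use name of this set. TRAV16D/DV11 was lower in ovary in 4 of 5 numbers, with 2.57% ± 0.974 (SD, n = 5) in brain and 1.82% ± 0.612 in ovary, a log2 difference of -0.49 ± 0.39 (edgeR adjusted p = 0.711). TRAV21/DV12 differed by 0.41 ± 0.68, TRAV13-4/DV7 by 0.39 ± 0.84 and TRAV15-1/DV6-1 by 0.36 ± 1.04 (edgeR adjusted p from 0.843 to 0.931). With the number as a block, since numbers paired the organs, TRAV13-4/DV7 turned to -0.23. Library preparation and organ cannot be told apart, and ovary samples were deeper.

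The dual-use names differed among themselves in their J partners. TRAV21/DV12 was joined mostly to TRAJ segments near the V cluster. TRAJ40 and above made up 227 of its 272 clonotypes, or 83.5%, TRAJ20 to TRAJ39 15.1% and segments below TRAJ20 1.47%. All other TRA V names, apart from the 10, had 22.2% of clonotypes in the highest of these classes, 53.8% in the middle and 24.05% in the lowest. TRAV13-4/DV7 had 53.5% at TRAJ40 and above and 13.2% below TRAJ20. TRAV15-1/DV6-1 and TRAV16D/DV11 had 32.2% and 31.5% at TRAJ40 and above.

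The leading partners of TRAV21/DV12 were TRAJ57 (42 clonotypes), TRAJ58 (37) and TRAJ49 (36), and it used 24 TRAJ segments where all other names together used 41. Those of TRAV13-4/DV7 were TRAJ49 (11), TRAJ23 (9) and, with 8 each, TRAJ43 and TRAJ57. TRAV15-1/DV6-1 was joined most often to TRAJ49 (6), TRAJ21 (5) and TRAJ30 (5). TRAV16D/DV11 used 39 TRAJ segments, led by TRAJ30 (37), TRAJ23 (35) and TRAJ37 (33). It had 52.7% of its clonotypes at TRAJ20 to TRAJ39, near the 53.8% of the other names, and 15.8% below TRAJ20. Of the few CDR3 sequences chosen for printing above, those of TRAV21/DV12 end in TRAJ56 or TRAJ58, and that of TRAV13-4/DV7 ends in TRAJ15.

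**Figure D2:**
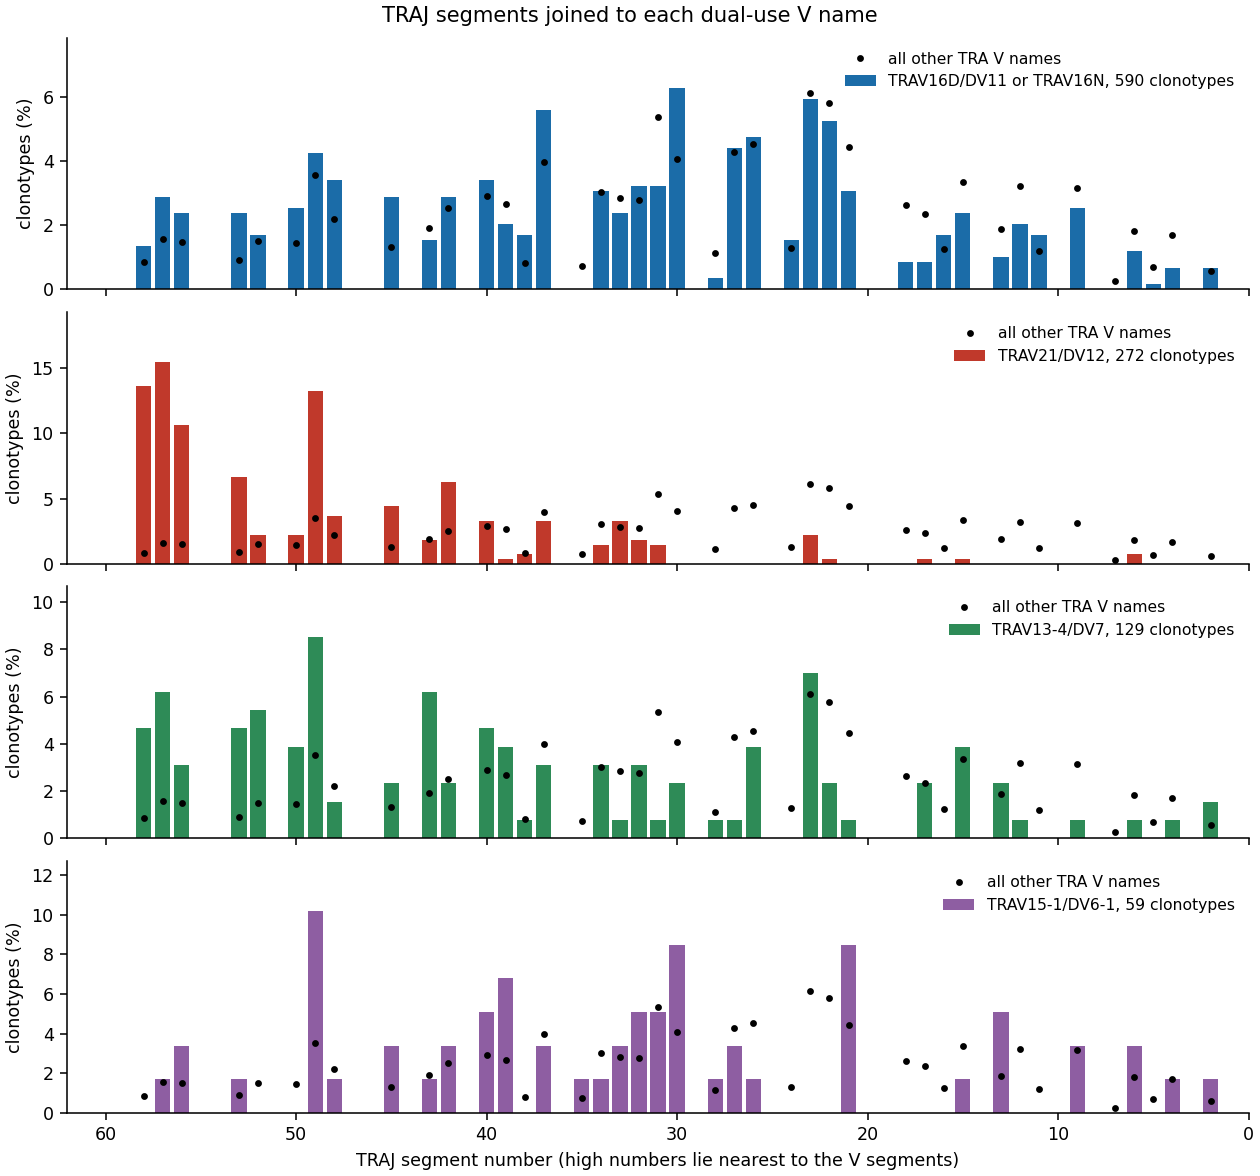
Percent of clonotypes (vertical axis) joined to each TRAJ segment, by its number (horizontal axis, with high numbers, nearest to the V segments, on the left), for the 4 main dual-use names (bars) and all other TRA V names (black points). TRAV21/DV12 has 83.5% of its clonotypes at TRAJ40 and above, against 22.2% for the other names.

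This was tested over numbers, on the mean TRAJ number of the clonotypes of a V name less that of all other TRA clonotypes of the same number, with each clonotype counted once and brain and ovary pooled. An exact two-sided sign-flip permutation test was run for 73 V names with at least 5 clonotypes in at least 6 numbers, with Benjamini-Hochberg adjustment over the 73. Of these, 22 (30.1%) were called higher and 31 (42.5%) lower, so a call was common among V names, and the rank of the difference is given beside each. TRAV21/DV12 had a mean TRAJ number of 48.0 against 28.8 for the rest, a difference of 19.2 ± 4.0 (SD, n = 9 numbers, higher in 9 of 9; exact permutation p = 0.00391, adjusted p = 0.0190), which ranked 2 of 73. TRAV13-4/DV7 was higher by 9.55 ± 2.96 (8 of 8 numbers, exact permutation p = 0.00781, adjusted p = 0.0190) and ranked 9. TRAV16D/DV11 was higher by 3.69 ± 1.23 (8 of 8 numbers, exact permutation p = 0.00781, adjusted p = 0.0190) and ranked 17. These are the smallest p-values that 9 and 8 numbers allow.

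TRAV21/DV12 stayed past the threshold in every alternative tried, brain samples alone included. Weighted by counts in place of clonotypes, the TRAV16D/DV11 difference was 0.66 (exact permutation, adjusted p = 0.795) and that of TRAV13-4/DV7 9.33 (adjusted p = 0.0556). TRAV15-1/DV6-1 had enough clonotypes in only 5 numbers and was not tested. Its differences there ran from -3.36 to 6.20.

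By number, the TRAV21/DV12 difference ran from 11.1 in number 6 (7 clonotypes) and 14.4 in number 13 (28 clonotypes) to 22.4 in number 3 (48 clonotypes) and 23.4 in number 8 (5 clonotypes). Every one of the 9 lay above the 8 values of TRAV16D/DV11, which ran from 1.98 to 5.72. TRAV13-4/DV7 lay at 8.56 to 13.1 in 7 numbers and at 3.30 in number 14, where it had 12 clonotypes.

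The share of TRAV21/DV12 clonotypes at TRAJ40 and above was high in each treatment and organ. In ovary it was 93.8% of 48 clonotypes untreated, 85.4% of 89 in the lead-in, 68.2% of 22 in Trametinib, 74.4% of 43 in the concurrent and 83.3% of 24 in the lead-in combination. In brain it was 81.3% of 32 in the concurrent and 86.5% of 37 in the lead-in combination, and the class held 2 of 2 clonotypes untreated, 10 of 12 in the lead-in and 12 of 13 in Trametinib. The other TRA names had 20.3% to 22.3% in these groups. With 1 number per ovary treatment, differences between treatments were not tested.

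The order of segments in the RefSeq table of the mouse assembly GRCm38.p6 was set beside these values. Of 130 TRAV segments in it, 2 lie nearer to the TRAJ cluster than TRAV21/DV12, 12 nearer than TRAV13-4/DV7, 31 nearer than TRAV15-1/DV6-1, 51 nearer than TRAV16N and 85 nearer than TRAV16D/DV11. The mean TRAJ number was lower for TRAV13-4/DV7 than for TRAV21/DV12, and lower again for TRAV16D/DV11, the farthest upstream. TRAV15-1/DV6-1 did not keep this order: it lies nearer than TRAV16D/DV11, and 3 of its 5 differences (0.81, 2.04, 1.94) lay between 0 and the TRAV16D/DV11 mean of 3.69, 1 below (-3.36) and 1 above (6.20). The neighbours TRAV19 and TRAV17, which have no delta name, had differences of 20.99 and 14.9. Other near segments went the other way, such as TRAV14-3 at -5.31 with 11 segments nearer and TRAV16 at -5.05 with 13 nearer. Over 49 single names the Spearman correlation of the order with the J position was -0.161, and -0.063 without the dual-use ones. It is a description across V names, which share libraries and are not independent.

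CDR3 length was tested in the same way, and of the 3 tested dual-use names of this set 2 were called longer. The joined name of TRAV14D-3/DV8 and TRAV14N-3, left out by the rule, was called shorter by 0.18 residues (exact permutation, adjusted p = 0.0496). The mean CDR3 of TRAV16D/DV11 was 14.9 residues, against 13.6 for the other clonotypes of the same numbers, and longer by 1.28 ± 0.23 residues (SD, n = 8 numbers, 8 of 8; exact permutation p = 0.00781, adjusted p = 0.0407). TRAV21/DV12 was longer by 1.07 ± 0.33 (n = 9, 9 of 9; exact permutation p = 0.00391, adjusted p = 0.0407). They ranked 2 and 5 of 73 V names, of which 11 (15.1%) were called longer and 12 (16.4%) shorter. Long CDR3s were not limited to dual-use names. TRAV15N-2 and TRAV16, which have no delta name, were called longer by 1.66 and 1.10 residues (exact permutation, adjusted p = 0.0407 and 0.0496). TRAV11N, also without a delta name, was longer by 1.15 residues but was not called (adjusted p = 0.0691, exact permutation). TRAV13-4/DV7 differed by -0.16 ± 0.39 residues (n = 8, longer in 2 of 8; exact permutation p = 0.289, adjusted p = 0.398). TRAV15-1/DV6-1, not tested, was longer by 1.57 to 2.08 residues in the 5 numbers with enough clonotypes.

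Counted over clonotypes, 57.5% of TRAV16D/DV11, 59.9% of TRAV21/DV12, 76.3% of TRAV15-1/DV6-1 and 20.2% of TRAV13-4/DV7 clonotypes had 15 residues or more, against 21.8% of the others. Both length calls were lost in brain samples alone (1.45 residues with adjusted p = 0.0563 for TRAV16D/DV11 and 0.98 with 0.0703 for TRAV21/DV12, exact permutation). They were also lost when any 1 of numbers 1, 3, 6, 10, 11, 12, 13 or 14 was left out (adjusted p 0.0567 to 0.0748, exact permutation), with differences of 1.23 to 1.33 and 1.00 to 1.12 residues over all numbers left out. Both names were longer in every number, so each p was then the smallest that the remaining numbers allow. That loss therefore does not measure how stable the differences are. With at least 10 clonotypes per number the TRAV21/DV12 difference was 1.06 residues (adjusted p = 0.0675, exact permutation).

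**Figure D3:**
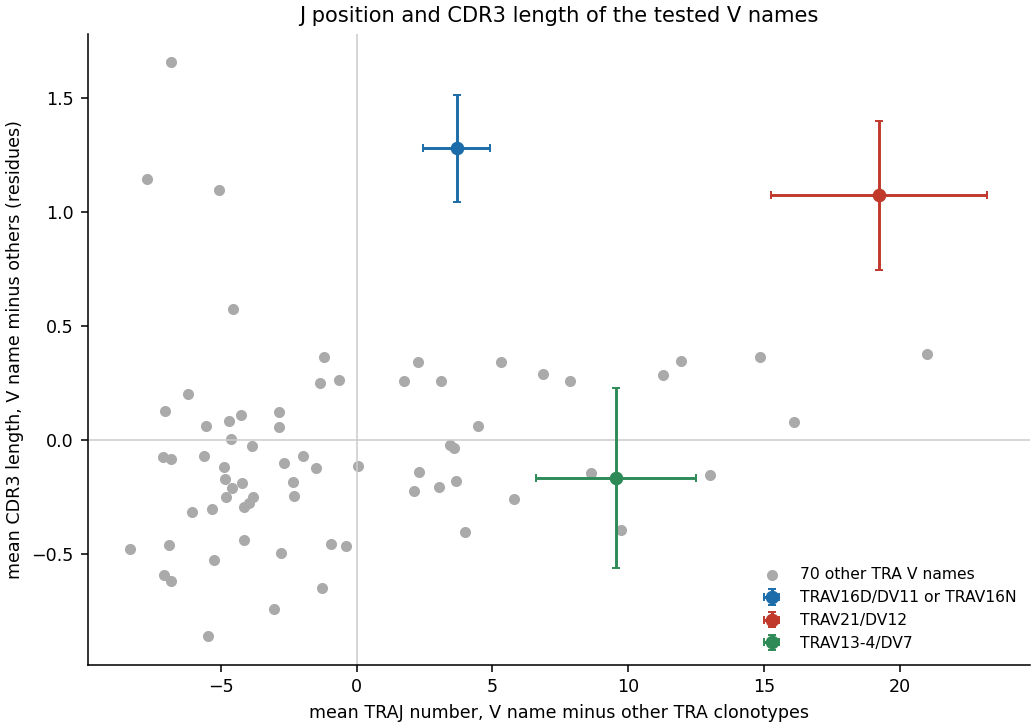
Difference in mean TRAJ number (horizontal) and in mean CDR3 length in residues (vertical) between a V name and the other TRA clonotypes of the same number, for the 73 tested V names. Bars on the dual-use names of this set are SD over 8 or 9 numbers. TRAV21/DV12, at 19.2 and 1.07, and TRAV16D/DV11, at 3.69 and 1.28, lie above 0 on both axes, and TRAV13-4/DV7 lies at 9.55 and -0.16.

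**Figure D4:**
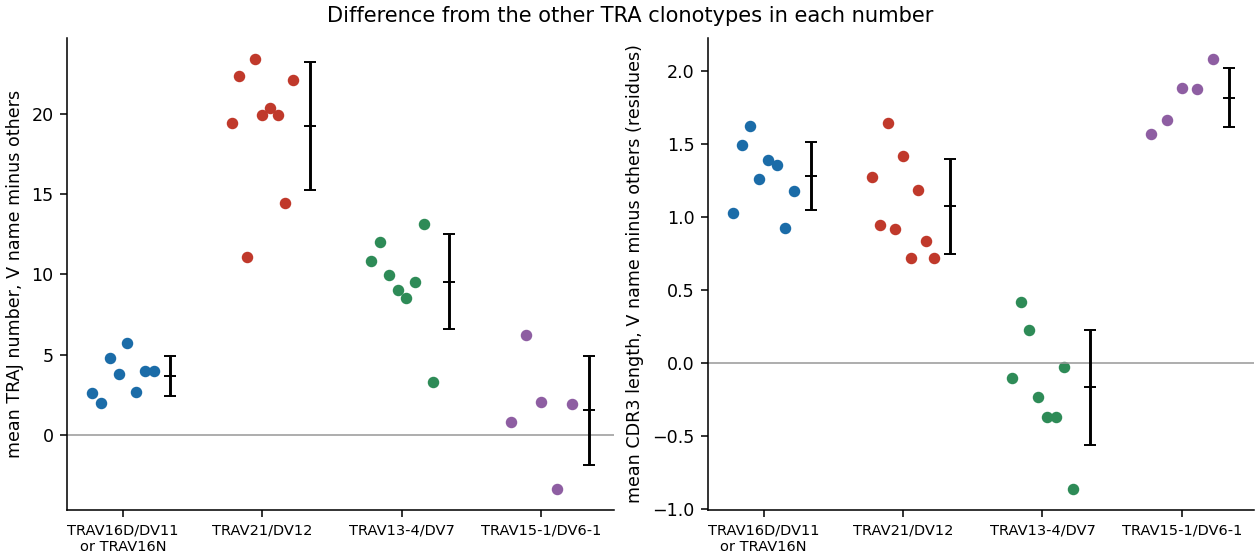
The same differences by number (points), with mean and SD (black bars), in TRAJ number (left) and CDR3 length in residues (right). TRAV15-1/DV6-1 was not tested and is shown for its 5 numbers, where its CDR3 is longer by 1.57 to 2.08 residues.

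Clonality within a name was measured by its largest clonotype and by the unbiased Simpson concentration, the percent chance that a pair of counts drawn from the name belongs to 1 clonotype, in each organ and number with at least 30 counts of it. The median over the TRA names other than the main dual-use ones was 11.5% in brain (279 pairs of a name and a number) and 13.5% in ovary (337 pairs). The median name of a number, used below, was taken over all TRA names with at least 30 counts there. None of these values was tested.

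TRAV16D/DV11 was diverse in most libraries. Its concentration was 3.96% to 10.4% in the 5 ovary numbers, each below the median name of the same number. In 5 of 7 brain numbers it was also below the median name. The exceptions were number 14, at 55.1%, and number 6, at 29.02%. In number 14 the clonotype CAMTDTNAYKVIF with TRAJ30 held 891 of 1203 counts of the name, 74.1%. It made up 7.21% of TRA counts in part 1 and 6.01% in part 2, and it occurred in these 2 samples alone. Without it the share of TRAV16D/DV11 in number 14 was 2.53%, within the range of the other brain numbers with all their clonotypes (1.26% to 4.04%). With the largest clonotype of each left out, the other brain numbers with at least 30 counts held 1.11% to 2.93%. In number 6 a 15-residue CDR3 with TRAJ11 held 75 of 146 counts, 51.4%.

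TRAV13-4/DV7 had its highest brain share in the same number 14, and there too it rested on 1 clonotype. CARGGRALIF with TRAJ15, a CDR3 of 10 residues, held 151 of 198 counts, or 76.3%, for a concentration of 58.8%. Without it the share was 0.359%, against 1.497% with it. In ovary number 10, the highest ovary value of the name, a 15-residue CDR3 with TRAJ43 held 349 of 796 counts, and the concentration was 23.4%. These were the highest of each organ. The concentration ran from 7.14% to 58.8% in 3 brain numbers, above the median name in 2. The other high brain value was 40.2% in number 11, where 1 clonotype held 22 of 36 counts. In 5 ovary numbers it ran from 8.99% to 23.4%, above the median name in 2.

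TRAV21/DV12 ranged widely, from 5.05% to 51.1% in 5 brain numbers and from 4.39% to 27.9% in 5 ovary numbers. The top brain value was number 8 (Trametinib), where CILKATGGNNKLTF with TRAJ56 held 24 of 35 counts, with 3.44% of TRA counts in part 1 and 0.872% in part 2. Those are 21 and 3 counts. Without it the share in number 8 was 1.18%, against 3.66% with it. In number 12 the clonotype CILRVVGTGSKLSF with TRAJ58 was the largest of the name in both organs. It held 27.6% of the TRAV21/DV12 counts in brain and 50.6% in ovary. TRAV16D/DV11 also had the same largest clonotype in both organs, in numbers 12 and 13. In number 12 it was a 16-residue CDR3 with TRAJ37, at 27.9% of the name in brain and 19.9% in ovary. In number 13 it was a 15-residue one with TRAJ23, at 14.3% (6 of 42 counts) and 24.9%.

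TRAV15-1/DV6-1 had 30 counts or more in only 1 brain number and 3 ovary numbers, with concentrations of 18.5% to 33.3%, above the median name in each. Its highest share of a sample, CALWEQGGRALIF with TRAJ15 at 0.327%, was 2 counts in part 1 of number 8. No clonotype of the 6 rare names had more than 6 counts in a sample.

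**Figure D5:**
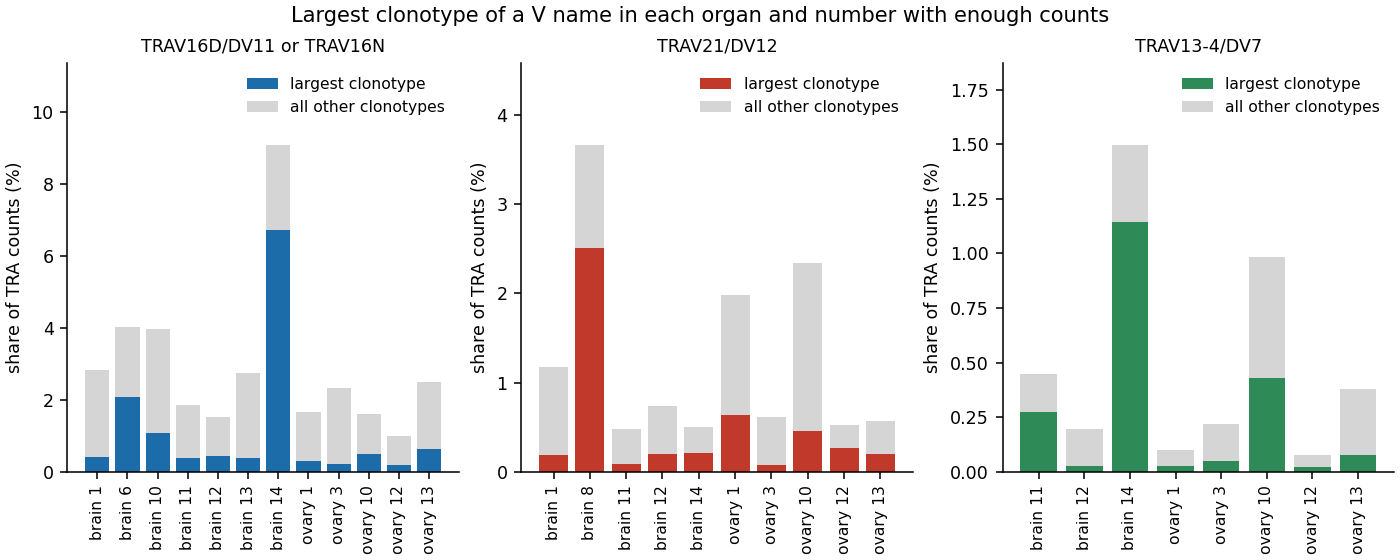
Share of TRA counts (%) of 3 dual-use names in each organ and number with at least 30 counts of the name, split into the largest clonotype (coloured) and all others (grey). In brain number 14 the largest clonotype is 74.1% of TRAV16D/DV11 and 76.3% of TRAV13-4/DV7, and in brain number 8 it is 68.6% of TRAV21/DV12.

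Most clonotypes of these names were found in 1 number. In 2 or more numbers were 11.2% of the TRAV16D/DV11 clonotypes, 8.46% of TRAV21/DV12, 5.43% of TRAV13-4/DV7 and 0 of 59 of TRAV15-1/DV6-1, against 6.54% of the other TRA clonotypes. In 4 or more numbers were 6 of the 1093 clonotypes of the 10 names, 0.549%, against 125 of 20866 others, 0.599%. Of these 6, 5 were TRAV16D/DV11. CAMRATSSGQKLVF with TRAJ16 was in 6 numbers and 10 samples, with 558 counts, and was the largest TRAV16D/DV11 clonotype in brain number 1 and in ovary number 10, where it held 30.1% of the name. The others were a 16-residue CDR3 with TRAJ57 in 6 numbers (132 counts), a 17-residue one with TRAJ2 in 5 (104 counts) and, both 15 residues with TRAJ22, 1 in 5 numbers (53 counts) and 1 in 4 (17 counts). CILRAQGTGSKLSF with TRAJ58 was the 1 such TRAV21/DV12 clonotype, in 4 numbers and 7 samples with 74 counts. Whether such a clonotype is the same nucleotide sequence cannot be read from amino acids, and exchange between libraries was not tested.

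Between organs of 1 number, 20.7% to 50.0% of the brain clonotypes of the 10 names were also in ovary, and 22.3% to 43.4% of the other TRA clonotypes were. The dual-use share was the higher in numbers 1 (36.3% against 26.6%), 3 (50.0% against 43.4%), 10 (43.8% against 37.1%) and 13 (41.4% against 38.8%), and the lower in number 12 (20.7% against 22.3%). Those shares rest on 8 to 92 brain clonotypes. By brain counts in place of clonotypes, the dual-use share was the higher in numbers 1 (60.3% against 58.1%) and 10 (46.9% against 46.7%). By that measure it was the lower in numbers 3 (56.3% against 60.3%), 12 (51.1% against 69.4%) and 13 (50.0% against 56.4%). Set against the ovary, 1.88% to 20.9% of its dual-use clonotypes were also in brain, which is the shallower organ, against 2.04% to 21.1% of the other TRA clonotypes.

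Across the 10 brain numbers, the TRA name whose share was most like that of TRAV16D/DV11 was TRAV12D-2 (Spearman rho 0.733). The nearest to TRAV21/DV12 was TRAV7-5 (0.842), to TRAV13-4/DV7 TRAV9N-3 (0.673), and to TRAV15-1/DV6-1 the joined name of TRAV5-4, TRAV5D-4 and TRAV5N-4 (0.779). Each is the highest of 74 names compared, over shares that have 1 total per library. The 4 dual-use names correlated with each other at -0.411 to 0.394.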

How the data were processed

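Libraries were made from total RNA (AllPrep and mirVana extraction) with QIAGEN's QIAseq Immune Repertoire kit, as the labels' protocols state. The authors deposited whole-number, unnormalized counts per chain, V name, J segment and CDR3. The sources used here do not say whether these are reads or molecules, nor name an aligner or clonotype caller. No coordinates are printed, since GRCh38, named in the submitters' processing notes, is a human build. Of 609329 counts, 0.0364% had an unresolved CDR3 (1 row among the dual-use names) and were left out. Joined names were kept as written. The names described, the lists and the tests were chosen with earlier results of these data known.

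Parts of a number were summed. V name counts of both chains (at least 10 counts in at least 2 libraries, offset by the log chain total) were tested with edgeR 4.0.16 in R 4.3.3, all 10 brain libraries in 1 fit, with DESeq2 1.42.0 as an alternative. J position and CDR3 length used exact sign-flip permutation over numbers in Python 3.11.15. All adjustments are Benjamini-Hochberg, with a threshold of 0.05. The scripts were tested on simulated data. No germline sequence of these segments was used here.

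Same-numbered brain and ovary libraries deviated together from their organ means over 111 V names (correlation 0.358, 0.126, 0.151, 0.430 and 0.273 for numbers 1, 3, 10, 12 and 13, all above 0.1; the highest of unmatched numbers was 0.0787), so numbers were taken to pair the organs. V names are not independent replicates.

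Values by sample were given for names with at least 10 counts in at least 2 brain libraries. The 3 leading J partners were ranked by clonotypes, and clonotypes named are the one of highest share of TRA counts in any sample, those in 4 or more numbers, and the largest per number where the text turns on it.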

Additional observations from a re-analysis of the deposited data

Results flagged for a closer look

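Of 38 sets of values screened, 7 held a sample or number far from the nearest of the others (a gap above Dixon's 95% limit). Independent, normally distributed values pass that limit in about 1 of 20 sets. These sets overlap and some hold parts of the same number, so that rate need not hold here. Over the 10 brain numbers of all treatments, number 14 stood apart in the share of TRAV16D/DV11 (9.10%), of TRAV13-4/DV7 (1.497%) and of all 10 dual-use names together (11.2%). Number 8 stood apart in the share of TRAV21/DV12 (3.66%). Among the 4 concurrent brain samples, part 2 of number 1 was low in TRAV13-4/DV7 (0.140%). Among the 4 lead-in combination brain samples, part 1 of number 14 was the only one with TRAV15-1/DV6-1 counts (0.124%). With all others at 0, any count there passes the limit. Among the 8 numbers of TRAV13-4/DV7, number 14 had the lowest difference in mean TRAJ number (3.30). The cause of these was not tested.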

How the results depend on the processing

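The J position of TRAV21/DV12 kept its direction and its call in all alternatives (18.4 to 20.3). No dual-use name passed the threshold in any comparison of shares under any alternative (lowest adjusted p 0.132), and 18 of 266 such values changed sign. With each clonotype counted once the log2 differences were 0.13 for TRAV21/DV12 with anti-PD-L1, -0.033 for TRAV16D/DV11 in the lead-in against the concurrent combination, and, ovary against brain, 0.018 for TRAV16D/DV11, -0.061 for TRAV21/DV12 and -0.061 for TRAV13-4/DV7. With the largest clonotype of each V name left out the first and second of these were 0.50 and -0.19. With the number as a replicate block, ovary against brain gave -0.23 for TRAV13-4/DV7 and 0 calls, and changed no call. Leaving out 1 number at a time gave, with anti-PD-L1, -0.90 to 3.21 for TRAV21/DV12 and -3.05 to 3.66 for TRAV15-1/DV6-1; for Trametinib against untreated, -0.68 to 7.54 for TRAV13-4/DV7 and -1.10 to 5.94 for TRAV15-1/DV6-1; for the lead-in against the concurrent combination, -1.16 to 1.41 for TRAV16D/DV11, -0.92 to 0.094 for TRAV21/DV12 and -1.01 to 1.90 for TRAV13-4/DV7; and for the organs, -0.30 to 0.62 for TRAV13-4/DV7.

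V names called in brain with anti-PD-L1 went from 0 to 4 with each part as its own library, and from 0 to 2 leaving out 1 number (2 without number 7). Between the combinations they were 1 with no filter, 1 with parts as libraries, and 0 to 2 leaving out 1 number (2 without number 14). Between organs they were 6 in DESeq2 and 9 with parts as libraries. Parts of a number are not independent, so those calls are too many. J position calls fell from 53 to 24 weighted by counts and 12 in brain alone. Fewer than 73 V names had enough clonotypes in brain alone, for J position and for CDR3 length. TRAV13-4/DV7 was among those not tested there, so calls in brain alone are not out of 73. CDR3 length calls, 23 in all, were 12 weighted by counts, 0 in brain alone (12 at an unadjusted exact permutation p under 0.05), 14 without clonotypes of a single count, and 0 to 29 leaving out 1 number. The cause was not tested, except that fewer numbers raise the smallest p an exact test allows. Counting only names whose every segment is dual-use, the summed share was 1.70% in brain and 1.67% in ovary. For all 10 names as a share of clonotypes, the ovary value was 5.10%. Brain depth limits the rare names: a count of 0 allows up to 1.30% in the shallowest sample.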
